A study of Mus musculus with 2 samples.

Results

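Replication-dependent histone genes were taken as every gene of the deposited matrix whose symbol starts with Hist1h, Hist2h, Hist3h or Hist4h. The rule found 69 genes, with 68 different symbols, among 27998. Of these, 46 had 50 or more UMIs (unique molecular identifiers, each standing for 1 captured RNA molecule) in the cells kept from both libraries together, and 23 had fewer. The matrix holds single-cell RNA-seq counts of mouse acute myeloid leukemia driven by retroviral *MLL-AF9*, a fusion oncogene. The study used it to ask what loss of *Kat2a*, a histone acetyltransferase, does to variability of transcription.

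All donor mice carried *Kat2a* Flox/Flox alleles and received pIpC, an inducer of the interferon response, to which the promoter of the Mx1-Cre recombinase answers. Mice with Mx1-Cre +/- gave the KO leukemias, and mice with Mx1-Cre -/- gave the WT leukemias. Bone marrow was collected 4 to 6 weeks after pIpC, transformed, and transplanted into irradiated recipients. Frozen marrow of terminal leukemias was thawed and pooled, 5 leukemias for WT and 4 for KO. Live YFP+ cells were sorted for 1 library of 10x Genomics 3′ tags per genotype, each aimed at 6000 cells. With 1 library per genotype no difference between genotypes could be tested. The intervals given are exact 95% intervals for counting error only, and say nothing of the spread between mice.

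Replication-dependent histones package newly made DNA, so their genes are switched on together as cells enter S phase and their RNA is degraded when replication ends. They encode the linker histone H1, which binds DNA between nucleosomes, and the core histones H2A, H2B, H3 and H4, which form the nucleosome itself. Their mRNAs are known for ending in a stem-loop that is bound by SLBP, in place of a poly(A) tail. Some of these genes also give polyadenylated RNA from sites beyond the stem-loop, more so in differentiated cells. A 3′ tag library primes on runs of A, so a count here is one of captured tags and not of all RNA from the gene. For this reason the order of counts between members is not an order of RNA amounts.

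The stem-loop is shown because it marks where the canonical mRNA ends, and so how much of each annotated transcript lies beyond that end. A 16-base motif (GG, any 2 bases, CTTTT, any base, AG, any 2 bases, CC) was searched on the transcript strand of the GENCODE M21 transcripts (GRCm38). It stood in a transcript of 42 of the 69 members and in 78 of 21951 protein-coding genes (0.355%). Its commonest form, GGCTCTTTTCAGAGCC, was held by 24 of the 42, followed by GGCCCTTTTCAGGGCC in 7 and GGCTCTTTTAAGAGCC in 6. The windows below are written 5′ to 3′ with the motif in capitals, and are those of members to which the results return.
Hist1h2ap: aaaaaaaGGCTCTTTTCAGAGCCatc
Hist1h2bj: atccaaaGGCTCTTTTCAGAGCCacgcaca
Hist2h2aa1: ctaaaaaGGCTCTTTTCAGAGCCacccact
Hist1h2ae: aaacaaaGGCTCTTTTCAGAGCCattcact
Hist1h1e: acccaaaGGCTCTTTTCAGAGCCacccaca
Hist1h1c: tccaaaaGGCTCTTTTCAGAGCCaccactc
Hist3h2a: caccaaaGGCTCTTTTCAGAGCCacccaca
Hist1h4i: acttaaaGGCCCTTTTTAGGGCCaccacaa

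The motif was the same 16 bases in 7 of these 8 windows, but what followed it differed. The annotated transcript of *Hist1h2ap* ended 3 bases past the motif, that of *Hist1h2bj* 23 bases past it and that of *Hist2h2aa1* 35. The transcript of *Hist1h2ae* ran on for 151 bases, *Hist1h4i* for 330, *Hist1h1c* for 840, *Hist1h1e* for 1153 and *Hist3h2a* for 1643. With a limit of 100 bases, 21 members had a short transcript and 21 an extended one. An AATAAA, the usual polyadenylation signal, lay within 50 bases of the end in 9 of the 21 extended and 0 of the 21 short transcripts. The other members had no motif in their transcript (25) or an identifier that GENCODE M21 does not hold (2, *Hist1h2bm* and *Hist1h2bh*). *Hist1h1b* and *Hist1h1a* are among the 25, with annotated transcripts of 743 and 741 bases.

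**Figure D1:**
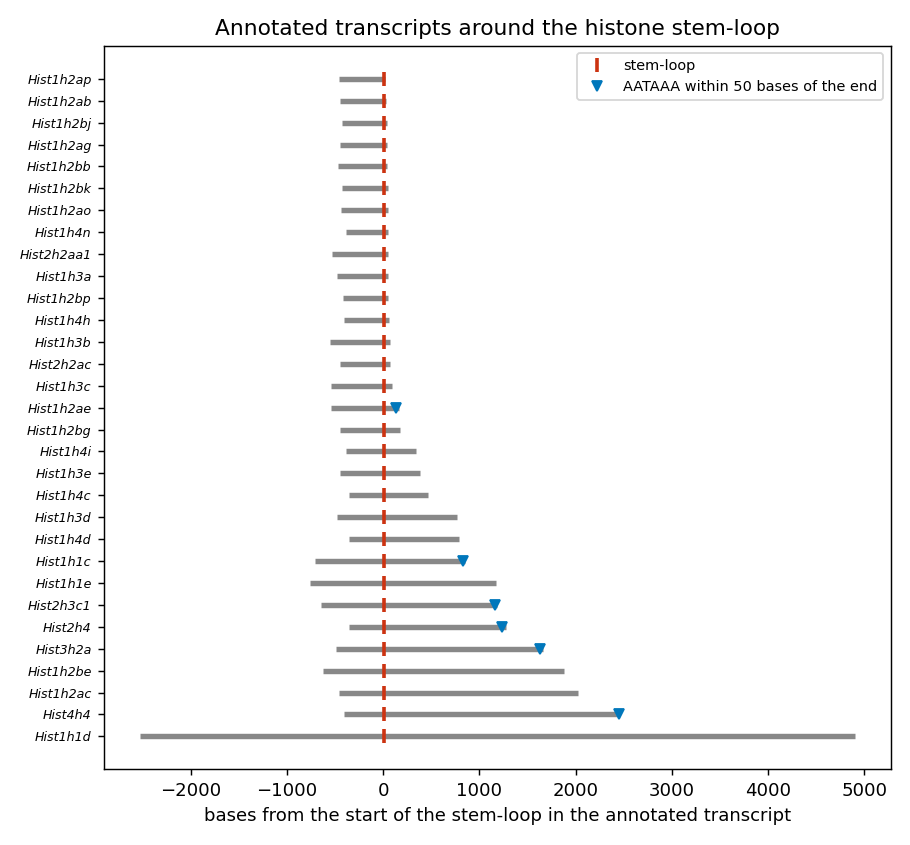
Annotated transcripts of the named members that hold the stem-loop motif, drawn in bases from its start; red ticks mark the motif and triangles an AATAAA within 50 bases of the end. Transcripts of the upper members stop close to the motif, and those of the lower members run on for up to 4884 bases (Hist1h1d).

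By position, 53 members lay on chromosome 13, 11 on chromosome 3 (the Hist2 cluster), 2 on chromosome 11 (Hist3) and 1 on chromosome 6 (Hist4). The copies are so alike that 35 of the 69 had fewer than 50% unique 50-base words in the last 300 bases of the transcript. For *Hist1h2ap* and *Hist2h2aa1* this share was 0%, the closest relatives being *Hist1h2ao* and *Hist2h2aa2*. *Hist1h1e* also had 0%, since its end overlaps the transcript of *Hist1h2be* on the same strand (chr13:23620629-23622558 and chr13:23583670-23621124). Whether and how reads shared by such copies were counted cannot be told from the matrix, so counts of single members of this kind are uncertain. *Hist1h1b*, *Hist1h1a*, *Hist1h1c*, *Hist1h1d*, *Hist3h2a* and *Hist1h4i* had 100% unique words there.

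Cells with 500 or more genes were kept, 3866 in the library labelled WT with a median of 2588.5 UMIs and 3545 in the library labelled KO with a median of 1884. *Kat2a* itself went against the labels, at 12.2 UMIs per 1e6 UMIs (CPM) in the library labelled WT and 95.8 in that labelled KO. The last exon is kept after excision, so a 3′ tag cannot show the deletion. Why the *Kat2a* count was higher in the library labelled KO was not tested, and barcodes were assigned by the code published with the study. Of the 8 granulocyte markers all were counted, and they took 7.84% of WT UMIs and 7.61% of KO UMIs. *Mmp8* (log2 ratio -1.16) and *Lcn2* (-0.84), 2 of the 8, were 1.5-fold lower in KO, and *S100a9* (-0.48) and *Ngp* (0.24) lay within that limit. Hemoglobin genes (4 of 4 markers) stood at 206 CPM in WT and 534 in KO, and the megakaryocyte genes *Pf4* and *Ppbp* at 7.63 and 97.7. Primary granule genes stood at 14041 and 12311 CPM, monocyte or macrophage genes at 979 and 920 (with *Irf8* at -0.72), and lymphoid genes at 54.2 and 78.3. Between the libraries, 19 barcodes of kept cells were shared. The part of label, marker cells and depth in the differences below was not tested.

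Together, the 69 genes gave 1331 CPM (1310 to 1352, from 15534 UMIs) in WT and 1049 CPM (1026 to 1072, from 8307 UMIs) in KO. The log2 ratio of KO over WT was -0.34 (-0.38 to -0.31). A few members held most of these counts. *Hist1h2ap*, an H2A gene, gave 24.8% of the histone UMIs in WT and 26.7% in KO, and the first 6 members gave 62.6% and 59.8%. In WT these were *Hist1h2ap*, *Hist1h1c*, *Hist1h2bc*, *Hist1h2ae*, *Hist1h1e* and *Hist1h1b*. Only the first 3 of these were also among the first 6 in KO, where *Hist1h2bj*, *Hist1h4i* and *Hist2h2aa1* took the other places.

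**Figure D2:**
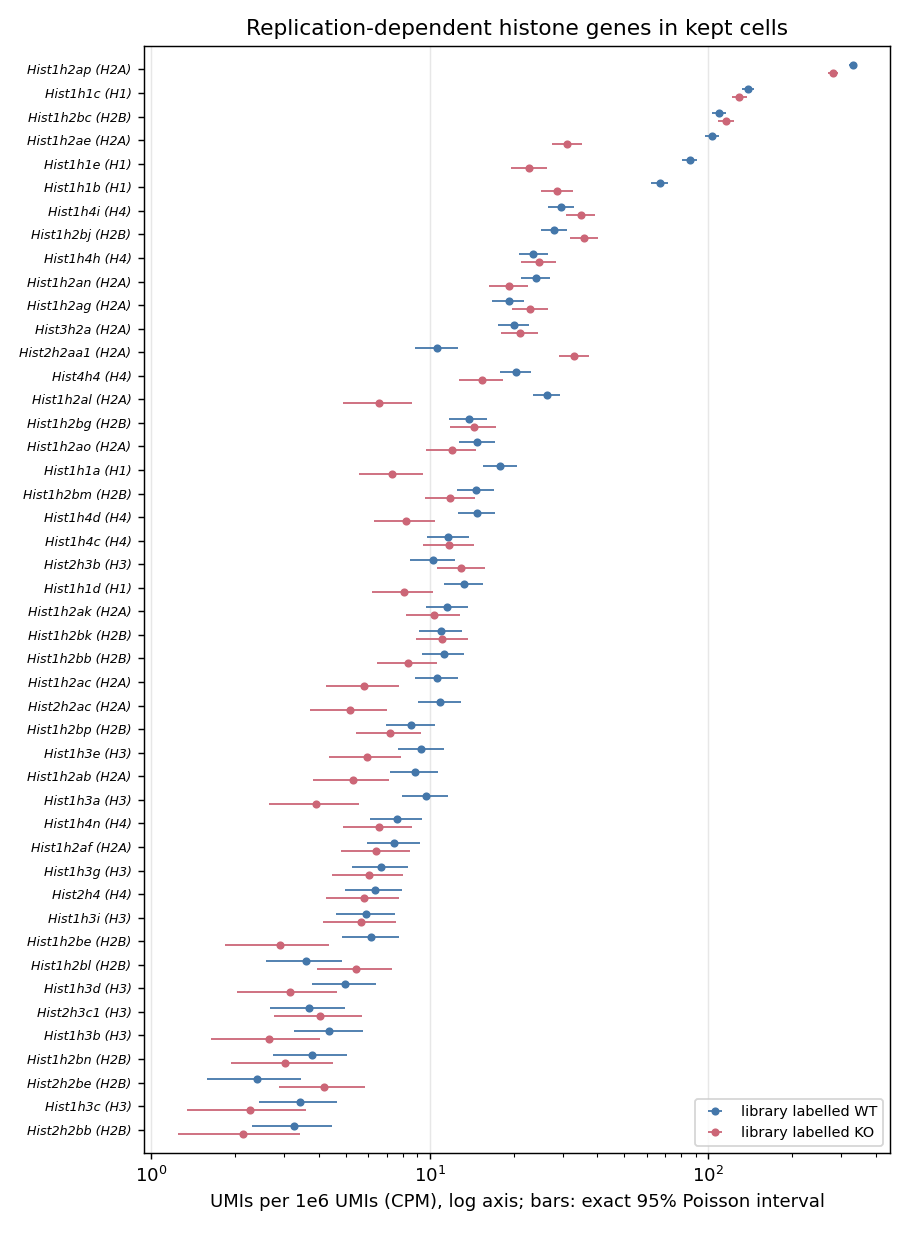
Level of each of the 46 named members in kept cells of each library, in UMIs per 1e6 UMIs (CPM) on a log axis, with exact 95% Poisson intervals. Hist1h2ap is first in both libraries, and Hist1h2ae, Hist1h1e, Hist1h1b and Hist1h2al lie to the left in the library labelled KO, with Hist2h2aa1 to the right.

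The 23 members under 50 UMIs included 8 under 10, and 2 of them (*Hist1h2br* and *Hist1h2ba*) had no UMI in kept cells, which allows up to 0.257 CPM in WT and 0.379 in KO (3 counts of the total). The most counted of the 23 was *Hist1h4f*, with 35 UMIs in WT and 13 in KO. *Hist1h1t*, the testis linker histone, had 1 UMI in WT and 0 in KO. *Hist2h2bb* stands in the matrix under 2 identifiers, and the protein-coding one gave 38 and 17 UMIs.

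To see how the members followed the cell cycle, each cell was classed by its UMIs of S-phase markers (*Rrm2*, *Tyms*, *Tk1*, enzymes that supply nucleotides for DNA synthesis) and mitotic markers (*Ube2c*, *Ccnb1*, which act in mitosis). In WT 18.8% of cells held S-phase UMIs only, 6.91% mitotic only, 14.7% both and 59.5% neither. In KO the shares were 22.8%, 7.50%, 16.5% and 53.2%. Cells with both were deeper than cells with neither, with median UMIs of 4014.5 against 2069 in WT and 2813 against 1503.5 in KO. The class a cell falls in thus depends on its depth, and values with each cell thinned to 1000 UMIs are given beside the main ones.

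Summed histone counts were highest in cells with both kinds of marker and lowest in cells with neither. In WT they stood at 2878 CPM in cells with both, 1471 in S only, 1254 in mitotic only and 560 in neither. In KO the levels were 1830, 1138, 1081 and 500 CPM in the same order. The log2 ratio of S only over neither was 1.39 (1.32 to 1.46) in WT and 1.19 in KO. For mitotic only over neither it was 1.16 and 1.11, and for both over neither 2.36 and 1.87. After thinning, S only over neither was 1.78 in WT and 1.19 in KO. So the order of the classes was the same in both libraries at own depth, but thinned S only and mitotic only cells of KO stood level, at 1369 (1285 to 1457) and 1377 (1250 to 1512) CPM. The order of these classes also rested on the markers that defined them. With *Pcna*, *Mcm5* and *Gins2* for S phase and *Cdc20*, *Plk1* and *Ccnb2* for mitosis, S only over neither was 0.76 in WT and 0.59 in KO, and mitotic only over neither 1.81 and 1.33.

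**Figure D3:**
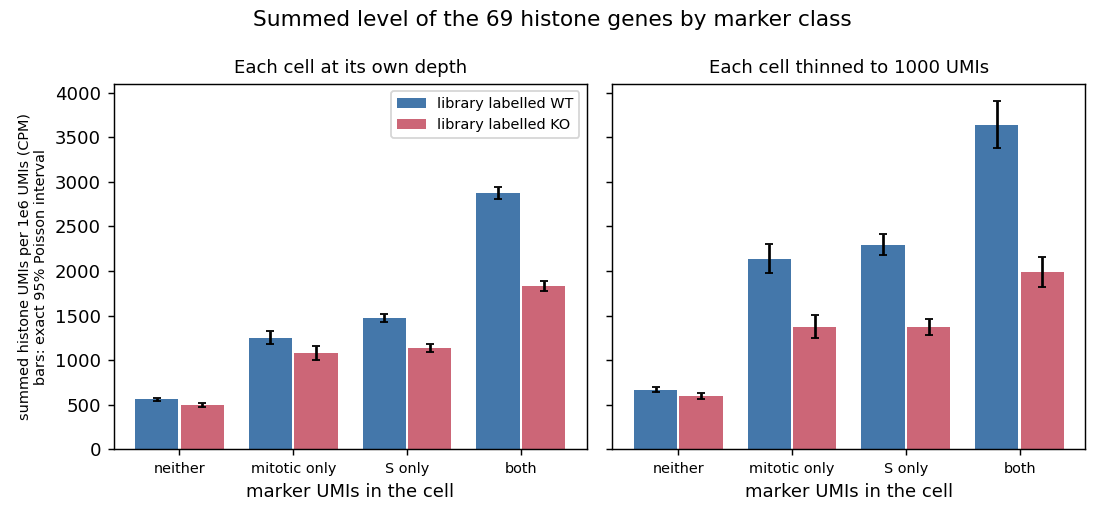
Summed level of the 69 genes in UMIs per 1e6 UMIs (CPM) by marker class and library, at own depth on the left and with each cell thinned to 1000 UMIs on the right; bars carry exact 95% Poisson intervals. Cells with both kinds of marker reach 2878 CPM in the library labelled WT and 1830 in KO at own depth, against 560 and 500 in cells with neither.

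Histone UMIs were found in 96.3% of WT cells with both markers and 57.8% of those with neither, and in 93.0% and 44.5% of KO cells. Thinned to equal depth, the shares were 89.8% and 39.1% in WT and 77.8% and 36.2% in KO. Free RNA in droplets also gives UMIs, and no cell type that should lack histone RNA was set apart here. Cells with both markers were 14.7% of WT cells but gave 46.6% of its histone UMIs, and in KO 16.5% of cells gave 43.3%. The counts were spread unevenly also for the leading gene. With thinned cells, the coefficient of variation of *Hist1h2ap* between cells was 2.81 in WT and 2.77 in KO, and 77.7% and 77.1% of its UMIs came from the 10 percent of cells that held most. Only 16.2% and 15.3% of thinned cells held it, at means of 0.279 and 0.233 UMIs, and sparse counts by themselves raise such a share. For *Hist1h2ae* the coefficient was 3.76 in WT and 6.01 in KO, where its mean per thinned cell was 0.0874 and 0.0286 UMIs. Since a low mean by itself widens this measure, the latter 2 values are not read as a change in variability.

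By member, 39 of 46 were 1.5-fold or more higher in S only than in neither in WT, where 19.6% of all 9300 genes compared were. In KO it was 38 of 46, against 17.4% of all genes. Both libraries shared 36 of these, 92.3% of the WT list and 94.7% of the KO list. The 5 in neither list were *Hist1h1c*, *Hist1h2bc*, *Hist1h2be*, *Hist1h4h* and *Hist3h2a*. For cells with both markers over neither it was 43 of 46 in each library (19.1% and 18.1% of all genes), 41 of them shared, and *Hist3h2a* alone was in neither list. For mitotic only over neither it was 31 in WT and 34 in KO (16% and 17.4% of all genes). In the other direction, 0 of 46 in WT and 1 in KO (*Hist3h2a*) were 1.5-fold or more lower in S only than in neither (17.5% and 21% of all genes). In mitotic only 3 were lower in WT and 0 in KO (18.3% and 22.1% of all genes).

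H2A genes had a log2 ratio of both over neither of 3.22 in WT and 2.78 in KO as a family. *Hist1h2ap* stood at 910 CPM in WT cells with both markers, 356 in S only, 295 in mitotic only and 54.6 in neither, and at 634, 312, 249 and 45.6 in KO. *Hist1h2ae* stood at 270, 121, 64.7 and 23.1 in WT and at 59.0, 32.5, 33.7 and 12.6 in KO. So its level in KO cells with both markers was below that of WT cells in S only. *Hist1h2ag* reached 50.5 CPM in WT and 47.3 in KO cells with both, against 1.65 and 1.89 in neither. *Hist3h2a*, an H2A gene outside the main cluster, was not higher with the markers, at 18.3 CPM with both and 21.8 with neither in WT, and 18.8 and 26.4 in KO. In KO it was 1.5-fold or more lower in S only than in neither (log2 ratio -0.79). With thinned cells it passed that limit downward in S only and mitotic only in each library, and with both in KO. *Hist2h2aa1*, from the Hist2 cluster, stood at 18.7 and 7.14 in WT and at 44.3 and 27.7 in KO.

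Linker histones fell into unlike patterns. *Hist1h1b* (H1.5) stood at 176 CPM in WT cells with both markers and 6.77 in neither, and at 65.1 and 2.83 in KO. The log2 ratio of both over neither was thus 4.70 in WT and 4.52 in KO. *Hist1h1e* (H1.4) stood at 188 and 37.3 CPM in WT and 35.1 and 14.5 in KO. *Hist1h1a* (H1.1) was highest in cells with S-phase UMIs, with 25.2 CPM in WT S only cells against 4.38 in mitotic only, and 14.8 against 4.40 in KO. *Hist1h1d* (H1.3) stood at 29.4 CPM with both and 3.66 with neither in WT, and at 15.3 and 1.57 in KO. *Hist1h1c* (H1.2) had the narrowest contrast of the 5 H1 members, at 180 CPM with both and 119 with neither in WT, just past 1.5-fold, and at 139 and 130 in KO. In S only cells it stood at 132 CPM in WT and 112 in KO.

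Of the H2B genes, *Hist1h2bc* was the most counted. In WT it stood at 147 CPM with both, 148 in mitotic only, 88.9 in S only and 95.4 in neither, and in KO at 154, 136, 99.9 and 97.4. It was thus past 1.5-fold with both over neither in each library and was not in S only. *Hist1h2bj* went from 7.69 CPM in neither to 64.4 with both in WT and from 10.4 to 58.0 in KO. *Hist1h2bk* went from 1.10 to 29.0 and from 1.26 to 18.8 CPM. Among H3 genes *Hist2h3b* went from 3.11 to 25.4 CPM in WT and from 3.77 to 23.4 in KO. *Hist1h3i* went from 1.46 to 14.3 CPM in WT and from 0.943 to 9.16 in KO. *Hist1h3a* differed from these in WT, with 19.4 CPM in S only cells, 6.76 with both and 7.14 with neither. In KO, where it had 31 UMIs, it was 1.5-fold or more higher with both than with neither.

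H4 genes together had a log2 ratio of both over neither of 1.58 in WT and 1.36 in KO. *Hist1h4i* went from 17.2 CPM in neither to 54.8 with both in WT and from 16.3 to 63.1 in KO. *Hist1h4h* stood at 19.0 and 35.4 CPM in WT and at 24.2 and 30.5 in KO. *Hist4h4*, the single gene of its cluster, stood at 17.2 and 28.2 in WT and at 10.4 and 17.8 in KO. *Hist1h4d* was wider, from 2.93 to 33.4 CPM in WT and from 2.20 to 12.7 in KO.

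The annotated end of the transcript ran along with this contrast in both libraries. The 21 short-transcript members together had a log2 ratio of both over neither of 3.42 (3.30 to 3.55) in WT and 2.85 in KO. For the 21 extended members it was 1.73 (1.64 to 1.83) and 0.93 (0.79 to 1.07). These sums rest much on single genes. *Hist1h2ap* gave 3847 of the 5973 UMIs of the short group in WT and 2214 of 3711 in KO. *Hist1h1c* gave 1618 of the 5795 UMIs of the extended group in WT and 1021 of 2600 in KO. Among named members, the median of both over neither was 3.41 in WT and 2.48 in KO over 15 short members. Over 16 extended ones it was 1.66 and 1.61, a narrower gap in KO than between the sums. For S only over neither the medians were 2.27 in WT and 1.83 in KO for short members, and 1.12 and 0.89 for extended ones. Both groups were mixed, as in WT *Hist1h2ae* and *Hist1h4d* lay high among extended and *Hist1h4h* and *Hist1h3a* low among short members. The ends are those of the annotation, and which site gave each tag was not measured. The split by transcript end was chosen after the data were seen.

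**Figure D4:**
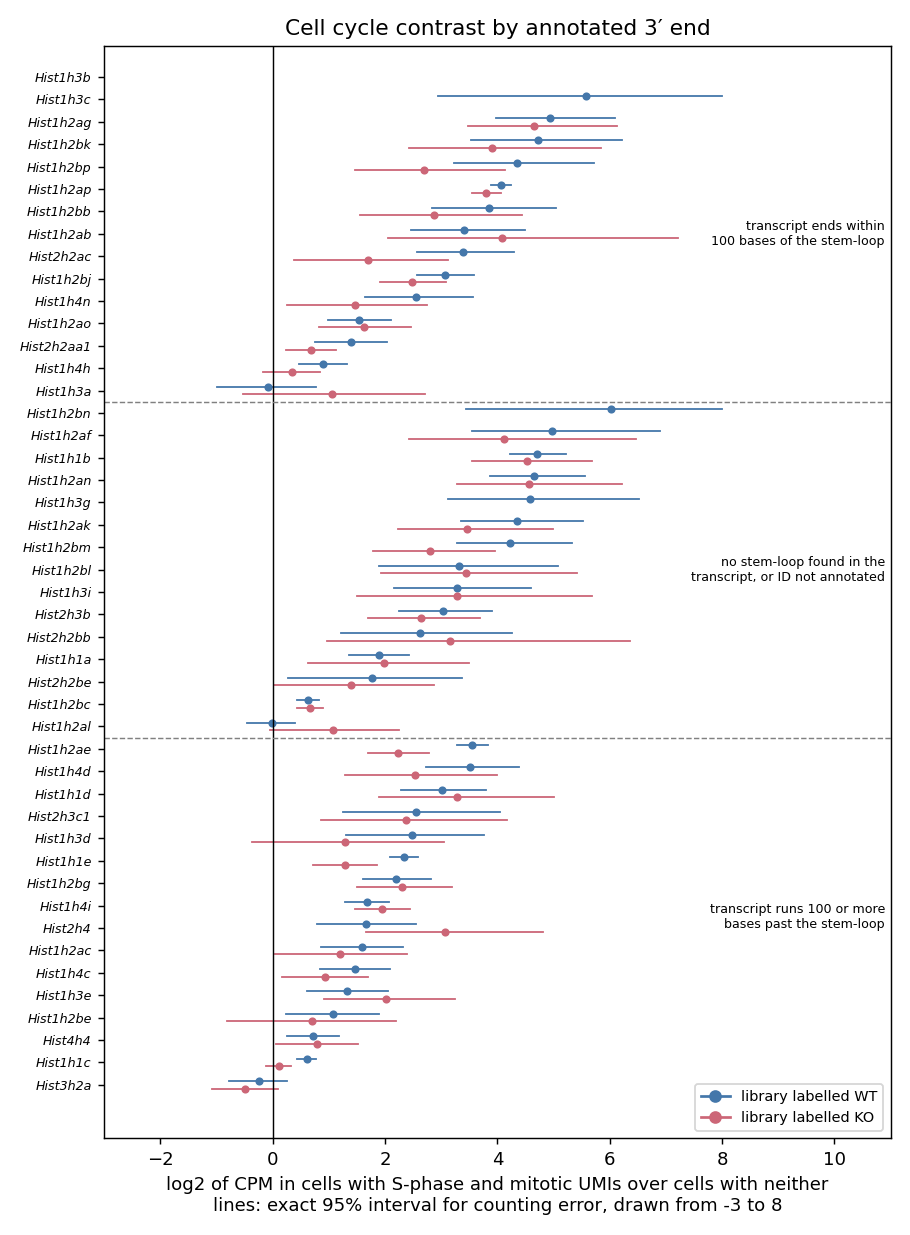
Log2 ratio of the CPM in cells with both kinds of marker over cells with neither, for each named member and library, with exact 95% intervals for counting error and members grouped by annotated transcript end. In the library labelled WT most short-transcript members lie above 2, Hist1h1c and Hist3h2a lie below 1, and no point is drawn where a class held 0 UMIs.

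Between the libraries, 17 of 46 members were 1.5-fold or more lower in KO, where 11.8% of the 9307 genes with 50 or more UMIs were. Another 3 were 1.5-fold or more higher, against 6.79% of all genes. The median log2 ratio of the members was -0.28, and that of all genes -0.01. The interval of the ratio lay below 0 for 16 members and above 0 for 3. With thinned cells 18 members were lower and 4 higher (15.6% and 10.5% of all genes), of which 12 and 2 were the same as at own depth.

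The H1 genes stood lower in KO as a family, at 322 CPM in WT and 196 in KO, a log2 ratio of -0.72 (-0.81 to -0.63). *Hist1h1e* went from 85.6 to 22.7 CPM (-1.91, -2.15 to -1.68) and *Hist1h1b* from 66.9 to 28.7 (-1.22, -1.44 to -1.01). *Hist1h1a* stood at 17.9 and 7.32 CPM (-1.29) and *Hist1h1d* at 13.3 and 8.08 (-0.72). All 4 passed the 1.5-fold limit. *Hist1h1c* stood at 139 and 129 CPM (-0.11, -0.22 to 0.01).

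The H2A family went from 604 to 463 CPM (-0.38, -0.44 to -0.32), with members on both sides. *Hist1h2ap* stood at 330 and 280 CPM (-0.24, -0.31 to -0.16). *Hist1h2ae* stood at 103 and 31.2 (-1.72, -1.93 to -1.52). *Hist1h2al*, annotated as a processed pseudogene at chr13:51202727-51203065, stood at 26.3 and 6.57 CPM (-2.003). *Hist2h2ac* (-1.07), *Hist1h2ac* (-0.87) and *Hist1h2ab* (-0.74) were also lower. *Hist2h2aa1* went the other way, from 10.6 to 33.0 CPM (1.63, 1.32 to 1.95), while its near-identical neighbour *Hist2h2aa2* had 9 and 3 UMIs. *Hist1h2al*, with 37.5% unique words in its last 300 bases, shared the others most with *Hist2h2aa2* and *Hist2h2aa1*. The opposite ratios of *Hist1h2al* and *Hist2h2aa1* are therefore not read as separate changes. *Hist1h2an* (-0.33), *Hist1h2ao* (-0.31), *Hist1h2af* (-0.21), *Hist1h2ak* (-0.16), *Hist3h2a* (0.07) and *Hist1h2ag* (0.26) lay within the limit. With thinned cells *Hist1h2ao* (-0.77), *Hist1h2af* (-0.82) and *Hist1h2ag* (0.60) passed it.

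H2B genes stood level as a family, at 221 and 227 CPM (0.04, -0.05 to 0.13). *Hist1h2bc* stood at 109 and 116 CPM (0.08) and *Hist1h2bj* at 27.9 and 35.9 (0.36, 0.13 to 0.59). *Hist2h2be* at 2.40 and 4.17 CPM (0.80, 0.03 to 1.58) and *Hist1h2bl* at 3.60 and 5.43 (0.59, -0.05 to 1.24) passed the limit upward. *Hist1h2be* (-1.09) and *Hist2h2bb* (-0.60, -1.52 to 0.26) passed it downward. *Hist1h2bl* and *Hist2h2bb* were within it with thinned cells, while *Hist1h2bj* passed it there (0.66). The remaining 6 named H2B members ranged from -0.43 (*Hist1h2bb*) to 0.06 (*Hist1h2bg*), with *Hist1h2bn* at -0.32, *Hist1h2bm* at -0.30, *Hist1h2bp* at -0.25 and *Hist1h2bk* at 0.02. Of these, *Hist1h2bn* (-1.08), *Hist1h2bp* (-0.78) and *Hist1h2bm* (-0.59) passed the limit with thinned cells.

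H3 genes gave 62.5 CPM in WT and 49.5 in KO (-0.34, -0.52 to -0.16). *Hist1h3a* stood at 9.68 and 3.91 CPM (-1.31, -1.93 to -0.72). *Hist1h3b* (-0.72), *Hist1h3d* (-0.66), *Hist1h3e* (-0.65) and *Hist1h3c* (-0.59) also passed the limit, and of these only *Hist1h3e* had an interval below 0. With thinned cells all 4 lay within the limit (-0.46, -0.36, 0.044 and -0.08), and the H3 family stood at -0.25 (-0.56 to 0.06). *Hist1h3g* (-0.14), *Hist1h3i* (-0.06), *Hist2h3c1* (0.13) and *Hist2h3b* (0.34) lay within it. H4 genes gave 122 and 113 CPM (-0.11, -0.23 to 0.01). *Hist1h4d* alone among them passed the limit, at 14.7 and 8.21 CPM (-0.84). *Hist4h4* (-0.40), *Hist1h4n* (-0.22), *Hist2h4* (-0.13), *Hist1h4c* (0.01), *Hist1h4h* (0.06) and *Hist1h4i* (0.23) did not, though *Hist4h4* did with thinned cells (-0.74).

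Set by the cluster named in the symbol, the 55 Hist1 genes together had a log2 ratio of -0.40 (-0.44 to -0.36) and the 11 Hist2 genes one of 0.45 (0.28 to 0.62). The Hist1 genes include *Hist1h2al*, which lies apart at chr13:51202727-51203065, and *Hist1h2bm* and *Hist1h2bh*, without a position in GENCODE M21. The Hist2 ratio turned on *Hist2h2aa1*, which gave 261 of the 546 UMIs of the Hist2 cluster in KO and 124 of 589 in WT. Without it the other 10 stood at 39.8 CPM in WT and 36.0 in KO, a ratio of -0.15 (-0.36 to 0.07). The ratio was also set out by sequence shared between genes, with a limit that does not part members cleanly. *Hist1h2ae* and *Hist2h2ac*, both lower in KO, had 78.1% and 80.9% unique words but shared others with 21 genes each. The part of shared sequence in the ratio was not tested. Of the 22 with 50% or more unique 50-base words in the last 300 bases, 12 were 1.5-fold lower and 1 higher, with a median of -0.60. Of the 23 with fewer, 5 were lower and 2 higher, with a median of -0.22. Among all genes, not split by unique words, 11.8% were lower and 6.79% higher. *Hist1h2bm*, which GENCODE M21 does not hold, is in neither group.

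Since KO held more cells with cycle markers, its lower histone level was also set out within each class. The log2 ratio of KO over WT was -0.16 in cells with neither marker, -0.21 in mitotic only, -0.37 in S only and -0.65 in cells with both. With class shares made equal it was -0.44 (-0.48 to -0.40), against -0.34 as captured. After thinning it was -0.16 in neither, -0.63 in mitotic only, -0.75 in S only and -0.87 with both. At equal class shares H1 stood at -0.78 (-0.86 to -0.69), H2A at -0.51, H3 at -0.46, H4 at -0.18 and H2B at -0.04 (-0.12 to 0.05).

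Of the 46 members, 13 (28.3%) were lower in KO in 4 of 4 classes, where 19.1% of all genes were, and 2 (*Hist2h2be* and *Hist2h2aa1*) were higher in 4 of 4, where 17.6% were. In cells with both markers 23 members were 1.5-fold or more lower and 3 higher, where 17.9% and 11% of all genes were. In S only cells 17 were lower and 3 higher (19% and 11.2% of all genes). In mitotic only cells 11 of 46 were lower and 7 higher, near the shares of all genes (20.5% and 17.3%). In cells with neither, 15 of 45 were lower and 6 higher (14.1% and 12.3% of all genes). *Hist1h1e* had a log2 ratio of -2.42 with both markers and -1.37 with neither, and *Hist1h2ae* one of -2.20 and -0.88. *Hist1h2al* ran in the opposite order, at -1.66 and -2.77.

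**Figure D5:**
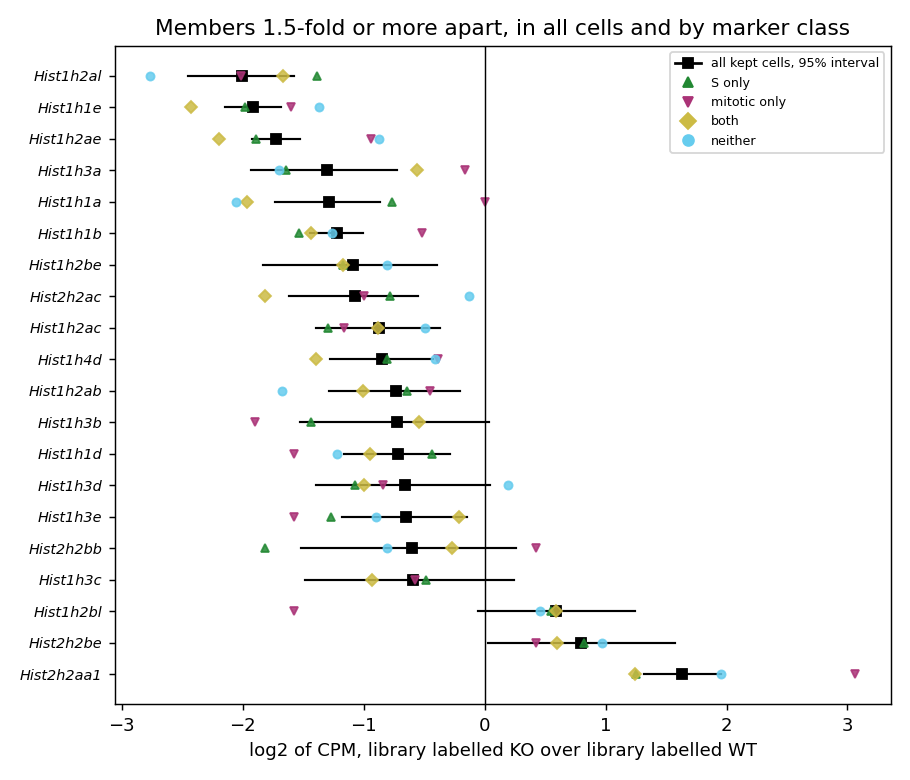
Log2 ratio of the library labelled KO over that labelled WT for the 20 members 1.5-fold or more apart; squares with lines give all kept cells with exact 95% intervals, and the other marks give each marker class. Hist1h1e and Hist1h2ae lie left of 0 in every class and Hist2h2aa1 lies right of 0 in every class.

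Summed cycle genes were higher in KO. Counts of listed genes past 1.5-fold are read against 11.8% lower and 6.79% higher among all genes. S-phase genes of a list of 24 gave 1985 CPM in WT and 2515 in KO (log2 ratio 0.34), with 2 of 24 past 1.5-fold higher, *Tk1* (0.76) and *Gins1* (0.63), and 0 lower. Mitotic genes of a list of 20 gave 1685 and 2017 CPM (0.26), with *Cdc20* higher (0.64) and *Mki67* (-1.37), *Cenpf* (-1.12), *Top2a* (-0.85) and *Cenpe* (-0.69) lower, 4 of 20 in the direction of the histones. The replication-independent histones, which as a class replace the others outside S phase and mostly come from polyadenylated mRNA, gave 12773 and 16911 CPM (0.40). Of 11 such genes 3 were 1.5-fold higher and 0 lower. These were *H1fx* (1.90, from 28 and 71 UMIs), *H3f3b* (0.86), which encodes H3.3, and *Cenpa* (0.70), the centromeric H3. *H2afz* and *H2afx* stood at 0.11 and 0.17. Summed, the 11 genes were also higher in cells with both markers, at 18105.5 CPM in WT against 10189 with neither. In KO these levels were 21766 and 13791 CPM. The log2 ratio of both over neither ran in WT from -0.28 (*H2afj*) to 3.34 (*Cenpa*), with *H2afx* at 3.07 and *H2afz* at 1.98.

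Of a list of genes that make and process histone mRNA, which also holds general cell cycle regulators, 21 of 22 had enough UMIs. *Slbp*, whose product binds the stem-loop, stood at 298 CPM in WT and 381 in KO (0.35). *Casp8ap2* (FLASH) at 20.7 and 9.47 CPM (-1.12) and *Npat*, the coactivator of histone genes, at 5.91 and 3.28 (-0.85, -1.56 to -0.18) were the 2 lower ones of 21, near the share of all genes. *Cdkn1a*, a cyclin-dependent kinase inhibitor and one of those general regulators, was the 1 higher gene, at 64.7 and 121 CPM (0.90). Of 19 histone chaperones and related factors 4 were lower and 1 higher. *Supt16*, a subunit of the FACT complex, stood at 40.3 and 11.4 CPM (-1.83), *Atrx* at 85.8 and 33.1 (-1.37), *Hjurp*, which loads CENP-A, at 28.5 and 15.2 (-0.91) and *Nap1l4* at 103 and 68.7 (-0.59). *Chaf1b*, of chromatin assembly factor 1, was higher, at 24.0 and 40.0 CPM (0.74).

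Promoter sequence was looked at because the members are switched on together. RefSeq windows (GRCm38.p6) from 250 bases before to 50 after the start were matched for 60 members. On either strand, CCAAT was in 51 of 60 (37.4% of 32851 promoters of all genes), TATAAA in 35 (13.6%) and the octamer ATTTGCAT in 12 (1.74%). The families differed. CCAAT was in every H1, H2A, H2B and H3 window and in 3 of 12 H4 windows, and the octamer was in 7 of 18 H2A and 5 of 14 H2B windows and in 0 of the others. Windows of some H2A and H2B neighbours on opposite strands overlap, so the same letters can be counted for both genes. A match is a description of the letters and does not show a site in use. The windows shown are those of *Hist1h1b* (chr13:21780576-21780875, minus strand), *Hist1h1c* (chr13:23738557-23738856, plus strand) and *Hist1h2ae* (chr13:23571171-23571470, minus strand), with the 3 motifs in capitals as read on the gene's strand.
Hist1h1b: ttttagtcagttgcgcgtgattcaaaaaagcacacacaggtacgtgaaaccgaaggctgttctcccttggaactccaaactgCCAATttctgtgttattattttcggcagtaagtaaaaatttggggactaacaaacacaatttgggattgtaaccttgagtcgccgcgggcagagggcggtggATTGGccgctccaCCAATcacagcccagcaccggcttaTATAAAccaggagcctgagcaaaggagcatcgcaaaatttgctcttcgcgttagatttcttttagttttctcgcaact
Hist1h1c: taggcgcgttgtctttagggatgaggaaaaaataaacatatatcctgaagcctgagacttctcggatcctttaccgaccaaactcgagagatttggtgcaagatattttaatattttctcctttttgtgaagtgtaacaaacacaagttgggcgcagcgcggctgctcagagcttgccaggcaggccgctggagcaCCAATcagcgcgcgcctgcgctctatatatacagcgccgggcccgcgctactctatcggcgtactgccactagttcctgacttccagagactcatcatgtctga
Hist1h2ae: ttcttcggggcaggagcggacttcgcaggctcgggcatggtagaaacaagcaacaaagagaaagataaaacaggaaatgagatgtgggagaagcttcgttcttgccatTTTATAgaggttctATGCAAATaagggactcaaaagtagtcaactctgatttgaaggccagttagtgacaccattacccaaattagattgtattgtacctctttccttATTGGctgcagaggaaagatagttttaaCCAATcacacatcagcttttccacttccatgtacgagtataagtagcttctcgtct

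*Hist1h1b* held CCAAT and TATAAA, and *Hist1h1c* held CCAAT and no TATAAA. *Hist1h2ap*, *Hist1h2ag* and *Hist1h2bj*, all wide in contrast, also had no TATAAA. Motifs were not set against counts or contrast over all members. The window of *Hist1h2ae* held all 3, with TATAAA and the octamer only as reverse complements. These are the same letters that the overlapping window of *Hist1h2bg* (chr13:23571150-23571449, plus strand) holds in forward reading.

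Cells were also set out by their share of UMIs from granulocyte markers, in 4 groups cut at quartiles of both libraries together, a split chosen after the data were seen. Summed histone counts of the top over the bottom group had a log2 ratio of 0.01 (-0.05 to 0.08) in WT and 0.45 (0.35 to 0.55) in KO. *Hist1h1c* stood higher in the top group in each library (0.52 and 0.81), and *Hist1h2bc* lower (-0.59 and -0.32). *Hist1h1a* (-0.90 and -0.90), *Hist1h4h* (-0.81 and -0.65) and *Hist3h2a* (-0.82 and -0.54) had intervals below 0 in WT, but theirs covered 0 in KO (-1.34 to 0.23 for *Hist3h2a*). The S-phase class markers (0.31 in WT and 0.37 in KO) and mitotic class markers (0.74 and 1.05) were also higher in the top group, and their part in these ratios was not tested.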

How the data were processed

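The authors sequenced 10x Genomics 3′ libraries, ran Cell Ranger (1.3.1 on mm10, per the submitters' processing notes) and deposited 1 matrix of raw UMI counts for called cells of both libraries, 4069 labelled WT with 11892536 UMIs and 4240 labelled KO with 8585416. Barcode suffixes were tied to genotypes by the labels and the code published with the study. How reads shared by near-identical genes were counted is not given in the sources used here. Nothing was normalized before deposit.

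Cells with under 500 genes (203 WT, 695 KO) were left out, and no doublet caller was run. Counts were summed by library and marker class and divided by the UMIs of those cells (CPM). Intervals for levels were exact Poisson, for shares Clopper-Pearson and for ratios exact conditional binomial, at 95% and for counting error only. A gene was compared where it had 50 or more UMIs in both libraries together, and a ratio of 1.5-fold or more was counted as higher or lower. With 0 UMIs on one side a ratio was taken against 3 counts. For equal depth, cells with 1000 or more UMIs (3800 WT, 3351 KO) were thinned to 1000 and classed again. For equal class shares each class was weighted by its share of the UMIs of both libraries together, with a normal approximation for that interval alone. Scripts used Python 3.11.15 with numpy 2.4.6 and scipy 1.17.1, and were tested on simulated data. TMM factors (edgeR 4.0.16) and size factors (DESeq2 1.42.0) served only as alternative scalings. Every member with 50 or more UMIs was named, and listed genes among the 3 largest ratios of their list in either direction, of which those past 1.5-fold are printed (hemoglobin genes as a sum). *Nap1l4*, *Cenpe*, *S100a9*, *Ngp*, *Slbp*, *H2afz*, *H2afx*, *H2afj*, *Kat2a* and members with fewer UMIs were named after their values were seen. The members, the gene lists and the markers were chosen with earlier results of these data known.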

Additional observations from a re-analysis of the deposited data

Results flagged for a closer look

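Cells with under 500 genes, which the comparisons leave out, also held histone UMIs. In the library labelled KO 695 such cells gave 315 histone UMIs, 474 CPM (423 to 529), where 3 counts would be 4.51 CPM. In WT 203 cells gave 92 UMIs, 412 CPM (332 to 506), and the intervals overlap. *Hist1h1c* (93 UMIs), *Hist2h2aa1* (51) and *Hist1h2bc* (34) led in KO, and *Hist1h2bc* (21), *Hist1h1c* (18) and *Hist1h2ap* (8) in WT. With 1 library per genotype no test was possible.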

How the results depend on the processing

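The summed level of all members kept its direction in each contrast under 37 alternatives, of which 20 moved it by less than the counting interval. Without *Hist2h2aa1*, an alternative added after seeing the data, the Hist2 cluster went from 0.45 to -0.15. The log2 ratio of KO over WT was -0.39 with every deposited cell, -0.30 in cells with 1000 or more genes and -0.41 without the 10 highest cells per gene. At equal class shares it was -0.53 in cells with 1000 or more genes, -0.52 thinned and -0.39 with the other class markers. In cells with 1000 or more genes, with the minimum of 50 UMIs applied anew, 10 members were 1.5-fold lower, against 14 thinned by the same rule. With fewer UMIs, fewer members can reach that minimum. These counts are therefore not set against the 17 at own depth and 18 thinned above, and are not read as a result about the members. S only over neither in WT was 1.29 in cells with 1000 or more genes, 1.78 thinned, 1.48 without the 5% of cells with most UMIs, 0.76 with other markers and 1.73 with 2 or more UMIs for a class. In KO it was 0.59 with other markers and 1.33 with 2 or more UMIs. Mitotic only over neither in WT was 1.67 thinned, 1.81 with other markers and 1.57 with 2 or more UMIs, and in KO 1.33 with other markers. TMM and DESeq2 size factors moved the summed ratio of KO over WT by less than its interval. For single members, alternatives chosen after seeing the data, 308 of 322 values moved by less than the interval, 13 moved further, and *Hist1h3e*, 1.5-fold lower as reported, changed sign when thinned (0.044). Some members within 1.5-fold also changed sign near 0. The cause was not tested. No paired analysis was possible because each genotype was captured as 1 library. Depth limits members with few UMIs in a class most.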
